A study of Mus musculus with 10 samples.

Results

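Mouse embryonic stem cells without DGCR8 were compared directly with cells without DDX6, using the 3 DGCR8 knockout libraries (DGCR8 KO) and the 4 DDX6 knockout libraries (DDX6 KO), 7 of the 10 libraries of the series. The remaining 3 libraries came from wild-type cells (WT), did not enter the comparison, and are given only as the level in cells that hold both proteins. Polyadenylated RNA was measured by QuantSeq, which reads the 3′ end of each transcript. All cells, wild type included, were grown in LIF and 2i, inhibitors that hold embryonic stem cells in the naive state, in a medium with 15% serum. The DGCR8 KO cells were a line made earlier. The DDX6 KO cells were 2 clones made with Cas9 from V6.5 cells and a guide at the start of exon 7, with 2 libraries each: 1 clone carries an insertion of 1 nucleotide and the other a large deletion, and the sources used here do not say which of them is clone 1. Every difference below therefore compares a single DGCR8 KO line with 2 DDX6 KO clones, and what is particular to a line cannot be told apart from the loss of its protein.

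DGCR8 is the RNA-binding partner of the nuclease Drosha, and together they cut miRNA hairpins out of primary transcripts, so cells without it make almost no miRNAs. DDX6 is an RNA helicase of P-bodies that is recruited by the miRNA effector complex through CCR4-NOT and that joins translational repression to decapping, and cells without it still make miRNAs. In naive embryonic stem cells the most abundant miRNAs belong to the ESCC family, made from the miR-290 cluster, whose members share a seed that is also carried by the miR-302 cluster and, shifted by a base, by the miR-17 cluster.

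The sequences below are shown because the results on primary miRNA transcripts and on seed matches turn on them. Capitals mark the seed, bases 2 to 8 of the mature miRNA, and the sequences are those of RefSeq on GRCm38.p6. The first 3 lie on chromosome 7, the next 2 on chromosome 3 and the last 2 on chromosome 14, and the first 5 are all the mature miRNAs with this seed among 1738 in that table. The table does not hold miR-302a-3p, which could not be shown.
mmu-miR-291a-3p: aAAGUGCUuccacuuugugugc
mmu-miR-294-3p: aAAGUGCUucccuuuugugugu
mmu-miR-295-3p: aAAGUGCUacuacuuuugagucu
mmu-miR-302b-3p: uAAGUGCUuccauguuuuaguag
mmu-miR-302d-3p: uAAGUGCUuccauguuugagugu
mmu-miR-17-5p: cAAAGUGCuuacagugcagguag
mmu-miR-20a-5p: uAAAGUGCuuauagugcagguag

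Matches to this seed were searched on the transcribed strand of the 3′ UTR of each gene's main coding transcript, as AGCACTT or GCACTTA, or as AGCACTTA where both overlap, counted as 1 match. Of 21059 genes with an annotated 3′ UTR, 3461 (16.4%) held at least 1 match, and so did 2171 of the 10750 tested genes with a 3′ UTR (20.2%). The following sites come from the Gencode M21 annotation on GRCm38 and are written 5′ to 3′ on the strand of the gene, with capitals for the match. They are those with the longest match in genes that the results below describe, out of a set picked by hand. That set held no gene described as higher in DDX6 KO. Peg10 and Fgd5, higher in DDX6 KO, also hold 1 match each, which is not printed. A match is a description of the letters and not evidence of binding.
Lats2, chr14:57691075-57691104, minus strand: agtatggaaagAGCACTTAttttgtggata
Lefty1, chr1:180938202-180938231, plus strand: actgtatgcgaAGCACTTAcatgtatagat
Lefty2, chr1:180897906-180897935, plus strand: cacccagtttaAGCACTTAcatgggtaaat
Cdkn1a, chr17:29100489-29100518, plus strand: gtgggtgtcaaAGCACTTAgtgggtctgac
Vim, chr2:13582640-13582669, plus strand: gaaagaagctcAGCACTTAacaactgacac
Lamp2, chrX:38420714-38420743, minus strand: ttgactgctacAGCACTTActaatttggct

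The total count over genes lay between 2607379 and 3381970 in the 7 libraries, so that 3 counts, taken here as the floor, stood for 0.887 to 1.15 CPM. Levels are given throughout in CPM, the count of a gene's 3′ tags scaled to the size of its library. Spearman correlations between libraries, across tested genes, which are not independent replicates, were 0.972 to 0.984 within a knockout and 0.909 to 0.926 between knockouts. On a principal component analysis 69.8% of the variance lay along the axis that parted the knockouts. No source says that libraries of a line were separate cultures, so p-values measure the spread between these libraries, which may be partly technical.

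The targeted genes went with the labels. Dgcr8 (chr16:18253948-18289249) had 10.2, 9.08 and 15.5 CPM in the DGCR8 KO libraries and 47.7 and 35.5 CPM in clone 1 and 52.8 and 52.2 CPM in clone 2 of DDX6 KO, beside 51.6, 53.4 and 68.1 CPM in WT. The log2 difference, coded throughout as DGCR8 KO minus DDX6 KO, was −2.06 (SE 0.24, adjusted p = 5.25e-06). Ddx6 (chr9:44604892-44640731) had 526, 482 and 489.7 CPM in DGCR8 KO, 151 and 136 CPM in clone 1, 39.6 and 26.2 CPM in clone 2 and 516, 538 and 607 CPM in WT. Its log2 difference was 2.92 (SE 0.37, adjusted p = 1.20e-05). Neither gene's knockout libraries overlapped those of the other line, reads of both remained in the knockouts, and clone 2 held less Ddx6 than clone 1 by 2.17 on the log2 scale (adjusted p = 0.000281).

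The transcriptomes of the knockouts lay far apart. Of 11376 tested genes, 1950 (17.1%) were called, meaning an adjusted p under 0.05 and a log2 difference beyond 1 in size: 859 (7.55%) were higher in DGCR8 KO and 1091 (9.59%) were higher in DDX6 KO. At the adjusted p alone, 2547 (22.4%) favoured DGCR8 KO and 2493 (21.9%) DDX6 KO, and the libraries of the groups did not overlap for 46.4% of tested genes. Beyond 2 on the log2 scale, 189 called genes were higher in DGCR8 KO and 333 in DDX6 KO. A gene low in 1 knockout could pass the filter, 3 CPM in 3 libraries, through any 3 of 4 DDX6 KO libraries or all 3 of DGCR8 KO. With a filter of 10 CPM the calls were nearly even, 617 higher in DGCR8 KO and 663 in DDX6 KO. The median over all tested genes was −0.01, and scaling by total counts alone shifted it by −0.11. In simulated counts for the same libraries, 92% of genes changed 3-fold were called. Of those changed 2-fold, a change that lies at the limit for a call, 64% passed the adjusted p and 40% were called. In that simulation 11176 of 11376 genes were unchanged, whereas 44.3% of the real genes passed the adjusted p. The rates therefore do not measure how many differences were missed here. Gene lists are described below by how many of their tested members were called in each direction and by their median. Their counts are to be read beside the shares of all tested genes given above. Where limma, the test used throughout, called no member of a list in a direction, edgeR and DESeq2 called none either, except for 1 primitive endoderm gene. The lists of nuclear-encoded respiratory chain and cytosolic ribosomal protein genes were not checked in this way. With clone 2 as the only DDX6 KO clone, 768 genes were higher in DGCR8 KO and 685 in DDX6 KO.

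**Figure D1:**
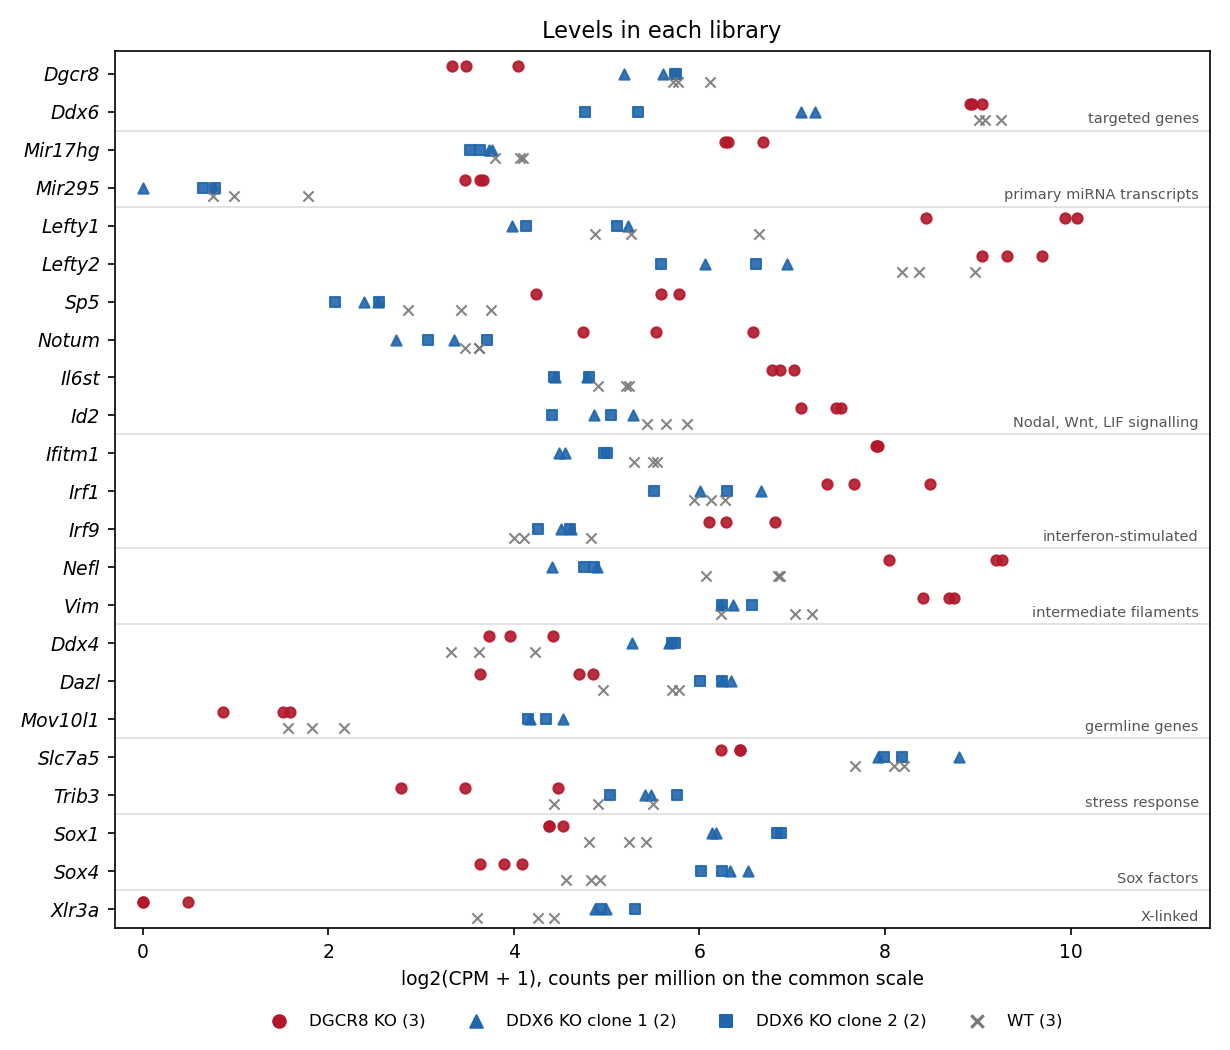
Levels of 23 genes that the text describes, by library, on a horizontal axis of log2(CPM + 1); circles are the 3 DGCR8 KO libraries, triangles and squares the 2 libraries of each DDX6 KO clone, crosses the 3 WT libraries. The DGCR8 KO libraries do not overlap the DDX6 KO libraries for any of these genes.

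Genes of chromosomes 6 and 8 were marked apart, since most of them were higher in DDX6 KO. On chromosome 6, 549 genes were tested and their median log2 difference was −0.54, with 21.9% of genes above 0, so that the middle gene was 1.45-fold higher in DDX6 KO. On chromosome 8, 621 genes were tested, the median was −0.45 (1.37-fold) and 22.9% were above 0. On the other 18 chromosomes with at least 100 tested genes the medians lay between −0.10 and 0.06. The shift ran along the whole of both: in windows of 50 neighbouring tested genes, all 11 medians on chromosome 6 lay between −0.70 and −0.18 and all 13 on chromosome 8 between −0.80 and −0.33.

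Beside WT, the chromosomes differed in which knockout stood apart. For chromosome 6, the median over genes of log2(CPM + 1), less the mean of WT, was 0.61 and 0.59 in clone 1, 0.53 and 0.51 in clone 2, and 0.04, 0.09 and 0.01 in DGCR8 KO. For chromosome 8 it was −0.40, −0.54 and −0.44 in DGCR8 KO, −0.06 and −0.02 in clone 1, and −0.01 and 0.001 in clone 2. Chromosome 6 was thus high in DDX6 KO and chromosome 8 low in DGCR8 KO, and the number of copies of these chromosomes was not measured. Of chromosome 6 genes 30.1% were called, 21 (3.83%) higher in DGCR8 KO and 144 (26.2%) in DDX6 KO. For chromosome 8 it was 22.5%, 24 (3.86%) and 116 (18.7%). On all other chromosomes 16.1% of 10206 genes were called, almost evenly as 814 (7.98%) higher in DGCR8 KO and 831 (8.14%) in DDX6 KO, and 42.5% passed the adjusted p alone. Genes of chromosomes 6 and 8 are named as such below.

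**Figure D2:**
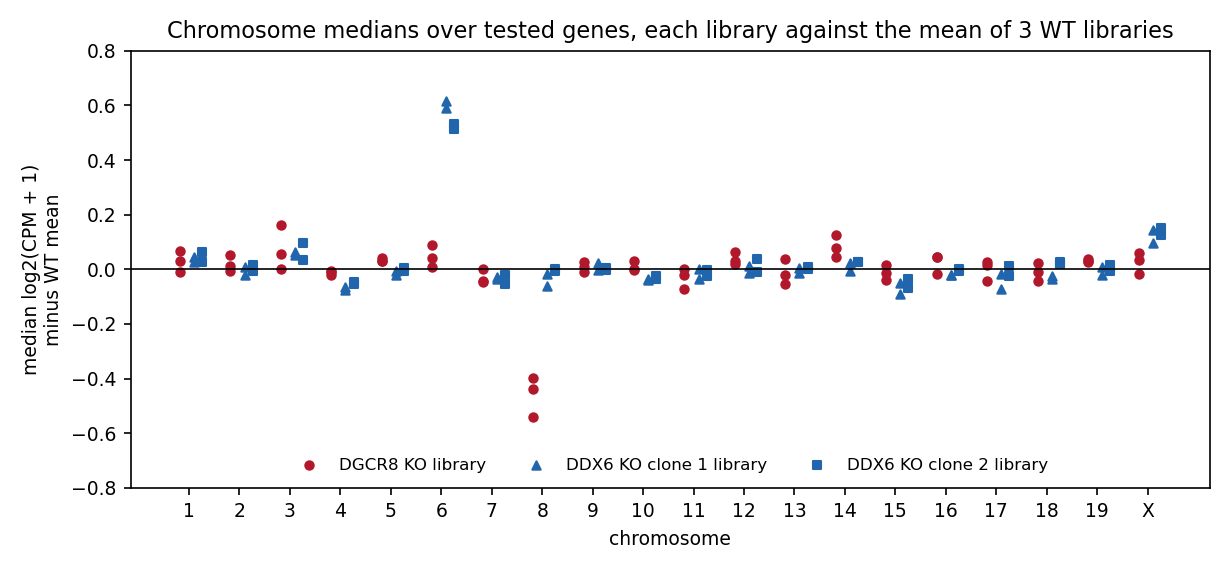
Median over the tested genes of each chromosome (horizontal axis) of log2(CPM + 1) minus the mean of the 3 WT libraries, 1 point for each knockout library; circles are DGCR8 KO, triangles and squares DDX6 KO clones 1 and 2. On chromosome 6 the DDX6 KO points lie at 0.51 to 0.61 and on chromosome 8 the DGCR8 KO points at −0.54 to −0.40, while points of the other chromosomes drawn lie between −0.09 and 0.16.

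Among primary miRNA transcripts, the substrates of DGCR8 and Drosha, 3 were called higher in DGCR8 KO. Mir17hg, the host transcript of miR-17 and miR-20a, had 78.2, 102 and 76.4 CPM in DGCR8 KO, 12.6 and 12.3 CPM in clone 1, 11.4 and 10.6 CPM in clone 2 and 15.7, 12.9 and 16.2 CPM in WT, a log2 difference of 2.85 (SE 0.19, adjusted p = 1.40e-08). All DGCR8 KO libraries lay far above all others. Mir295, annotated on the miR-295 hairpin of the miR-290 cluster, had 11.7, 10.1 and 11.4 CPM in DGCR8 KO and at most 2 counts in any DDX6 KO library. Its pooled ratio was 21.9 (95% counting interval 9.72 to 61.3), with an adjusted p of 5.73e-06. Mirg, which holds miRNAs of the imprinted cluster on chromosome 12, had 22.3 ± 4.75 CPM (SD, n = 3) in DGCR8 KO and 7.15 ± 1.83 CPM (SD, n = 4) in DDX6 KO, a log2 difference of 1.63 (SE 0.26, adjusted p = 8.85e-05). Of 1187 genes listed as miRNA hairpins or hosts only 9 reached the level needed for a test, 4 passed the adjusted p higher in DGCR8 KO, 3 of them called, 1 was called higher in DDX6 KO and 4 did not pass. The call in DDX6 KO was Mir9-3hg, a host of miR-9 named after its values were seen, with at most 2 counts in any DGCR8 KO library and a pooled DDX6 KO to DGCR8 KO ratio of 9.48 (95% counting interval 3.86 to 30.2).

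Genes whose 3′ UTR matches the ESCC seed were called higher in DGCR8 KO more often than genes without a match. The median log2 difference was −0.05 over 8579 genes with no match, 0.10 over 1687 with 1 match, 0.22 over 362 with 2 and 0.15 over 122 with 3 or more. Scaling by total counts alone lowered all 4 medians, to −0.16, −0.01, 0.11 and 0.04, while the median of genes with a match less that of genes without was 0.18 under both scalings. Called higher in DGCR8 KO were 6.34% of genes with no match, 11.1% with 1, 14.4% with 2 and 16.4% with 3 or more, against 7.55% of all tested genes. Called higher in DDX6 KO were 10.2%, 6.94%, 5.25% and 4.92% in the same order, against 9.59%. Outside chromosomes 6 and 8 the shares higher in DGCR8 KO were 6.69%, 11.9%, 15.6% and 15.2%.

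Genes with more matches have longer 3′ UTRs, so the shares were also read within 3 classes of UTR length of about equal size. In the short class 15.4% of 149 genes with a match and 6.61% of 3436 without were called higher in DGCR8 KO. The middle class gave 13.8% of 589 and 5.61% of 2992, and the long class 10.8% of 1433 and 6.93% of 2151. The share was higher with a match in each class, and these are descriptions of genes of 1 comparison with no test.

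**Figure D3:**
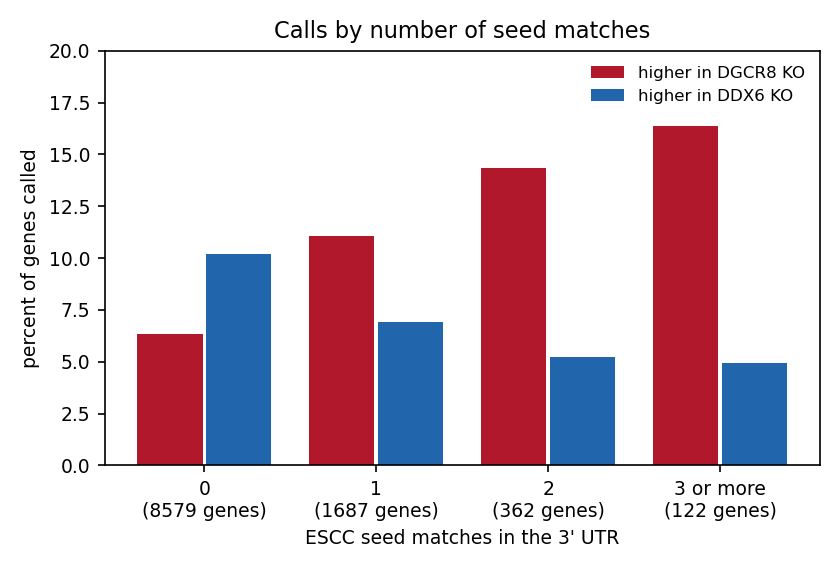
Percent of tested genes called in either direction (vertical axis, DGCR8 KO and DDX6 KO each with its bar), by the number of ESCC seed matches in the 3′ UTR (horizontal axis, with the number of genes). The share higher in DGCR8 KO goes from 6.34% with no match to 16.4% with 3 or more, and the share higher in DDX6 KO from 10.2% to 4.92%.

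Among 12 tested genes described as targets of ESCC miRNAs, 7 were higher in DGCR8 KO and 3 in DDX6 KO at the adjusted p, of which 3 and 1 were called, and the median was 0.49, or 0.27 without chromosomes 6 and 8. Lats2, a kinase of the Hippo pathway, had 96.4, 64.9 and 70.7 CPM in DGCR8 KO, 19.2 and 13.3 CPM in clone 1, 18.9 and 17.97 CPM in clone 2 and 13.8, 12.6 and 18.5 CPM in WT. The log2 difference was 2.15 (SE 0.19, adjusted p = 3.17e-07). Every DGCR8 KO library lay above every other library, and DDX6 KO overlapped WT. Ei24, a p53-induced gene of the endoplasmic reticulum, differed by 1.51 (SE 0.12, adjusted p = 1.32e-07), and Casp2, which encodes caspase 2 and lies on chromosome 6, by 1.53 (SE 0.22, adjusted p = 3.25e-05). Cdkn1a, the p21 inhibitor of G1/S kinases, was named here after its values were seen: with 457 ± 91.7 CPM (SD, n = 3) in DGCR8 KO and 266 ± 37.3 CPM (SD, n = 4) in DDX6 KO it was higher in DGCR8 KO (adjusted p = 0.000311) by less than the limit for a call, at 0.77.

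Transcripts for proteins of the miRNA pathway were also higher in DGCR8 KO. Of the 10 tested, 6 were higher in DGCR8 KO at the adjusted p and none in DDX6 KO, against 22.4% and 21.9% of all tested genes. The median was 0.41. Ago1, an Argonaute that carries miRNAs, had 192, 182 and 172 CPM in DGCR8 KO and 72.8, 73.7, 84.1 and 61.6 CPM in the DDX6 KO libraries, a log2 difference of 1.33 (SE 0.12, adjusted p = 3.95e-07). Tnrc6c, a GW182 protein that links Argonautes to deadenylases, differed by 1.08 (SE 0.14, adjusted p = 1.95e-05), and its call was lost without replicate 1 of DDX6 KO clone 1, at 0.98, and with scaling by total counts alone, at 0.97. Short of the limit for a call were Drosha, at 0.72 (adjusted p = 0.000556), Xpo5, the exporter of hairpins, at 0.47 (0.0138), Tnrc6a at 0.46 (0.00108) and Ago2 at 0.37 (0.00599). For Dicer1 the log2 difference was 0.25 (adjusted p = 0.0835), for Tnrc6b 0.20 (0.186), for Ago3 −0.03 (0.889) and for Prkra −0.06 (0.852).

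Of each list for the machinery in which DDX6 acts, 4.35% to 6.67% were called, against 17.1% of all tested genes. At the adjusted p alone 22.4% of all tested genes were higher in DGCR8 KO and 21.9% in DDX6 KO. For the 23 deadenylase genes those counts were 6 and 5. Of 23 deadenylase genes 1 was called, Cnot6, a catalytic subunit of CCR4-NOT, with 357 ± 13.8 CPM (SD, n = 3) in DGCR8 KO and 164 ± 12.05 CPM (SD, n = 4) in DDX6 KO, a log2 difference of 1.13 (SE 0.10, adjusted p = 3.09e-07). Of 23 genes for decapping, P-bodies and cap binding, 9 were higher in DGCR8 KO and 7 in DDX6 KO at the adjusted p, and the called member was Lsm5 on chromosome 6, at −1.61 (SE 0.20, adjusted p = 7.87e-06). That list's median was 0.10, −0.01 with scaling by total counts alone and 0.30 without chromosomes 6 and 8. Of 15 factors of nonsense-mediated decay the only call was Magohb, also on chromosome 6, at −1.39. Its groups overlapped, and its call was lost without DGCR8 KO replicate 1 (adjusted p = 0.0698).

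Nodal signalling genes gave some of the largest differences. Nodal is a TGF-beta ligand of the epiblast, and Lefty1 and Lefty2 are its secreted inhibitors as well as its targets. Lefty1 had 1077, 979 and 347 CPM in DGCR8 KO, 36.6 and 14.7 CPM in clone 1, 33.5 and 16.5 CPM in clone 2 and 98.7, 37.4 and 28.4 CPM in WT, a log2 difference of 4.97 (SE 0.41, adjusted p = 1.33e-07). Lefty2 had 829, 638 and 528 CPM in DGCR8 KO, 122 and 65.6 CPM in clone 1, 97.0 and 47.1 CPM in clone 2 and 502, 330.2 and 289.6 CPM in WT, a log2 difference of 3.10 (SE 0.22, adjusted p = 3.08e-08). Both were higher in every DGCR8 KO library than in any DDX6 KO library. DDX6 KO lay below WT for Lefty2 and overlapped it for Lefty1. The 2 genes are near-identical neighbours, and how reads are split between them is uncertain.

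Other members of the Nodal list differed less. Inhbb, the beta-B subunit of activin, was called in the other direction at −1.81 (SE 0.40, adjusted p = 0.00169). Below the limit for a call, the secreted antagonist Fst (0.86, adjusted p = 0.00917), the protease Pcsk6 (0.62, 0.0123), Smad3 (0.52, 0.0385) and the repressors Skil (0.38, 0.0383) and Ski (0.34, 0.0213) were higher in DGCR8 KO, and the inhibitor Smad7 (−0.55, 0.00186) in DDX6 KO. The ligand itself did not pass the test: Nodal had 148 ± 18.8 CPM (SD, n = 3) in DGCR8 KO and 139 ± 25.95 CPM (SD, n = 4) in DDX6 KO, and neither did its co-receptor Tdgf1 (0.03, adjusted p = 0.949), the receptors Acvr1b, Acvr2a and Acvr2b, the protease Furin, Smad2 or Smad4. Fst passed the limit without DGCR8 KO replicate 1 (1.02) or 3 (1.01). Over the 18 tested members the median was 0.20.

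Wnt targets were higher in DGCR8 KO: 6 of 10 tested members at the adjusted p, 3 of them called, none in the other direction, with a median of 0.78. Sp5, a transcription factor induced by beta-catenin, had 54.1, 17.8 and 47.0 CPM in DGCR8 KO, 4.80 and 4.21 CPM in clone 1, 3.21 and 4.85 CPM in clone 2 and 9.83, 6.28 and 12.5 CPM in WT, a log2 difference of 3.02 (SE 0.47, adjusted p = 7.75e-05). Notum, a secreted enzyme that inactivates Wnt ligands, differed by 2.56 (SE 0.42, adjusted p = 0.000124). Lef1, a partner of beta-catenin on DNA and also a marker of primed cells, had 29.1, 9.42 and 20.4 CPM in DGCR8 KO and at most 3 counts in any DDX6 KO library, beside 19.2, 9.77 and 15.2 CPM in WT. Its pooled ratio was 47.2 (95% counting interval 19.8 to 147), with an adjusted p of 2.97e-05. For Lef1 the DDX6 KO libraries lay below WT and the DGCR8 KO libraries overlapped it, while for Sp5 and Notum the DGCR8 KO libraries lay above WT.

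Of the BMP list 3 of 12 tested members were called, all higher in DGCR8 KO, although 4 were higher in each knockout at the adjusted p and the median was 0.01, which turned negative (−0.11) with scaling by total counts alone and was 0.04 without chromosomes 6 and 8. Id2, an inhibitor of bHLH factors, had 177, 184 and 136 CPM in DGCR8 KO, 38.1 and 28.1 CPM in clone 1, 32.1 and 20.3 CPM in clone 2 and 42.2, 57.3 and 48.7 CPM in WT, a log2 difference of 2.53 (SE 0.18, adjusted p = 2.94e-08). The inhibitory SMAD gene Smad6 (1.17, adjusted p = 0.00238) and the target Msx2 (1.16, 0.0161) were the other calls. Smad6 was at 0.94 without replicate 2 of DDX6 KO clone 2, and Msx2 lost its call without DGCR8 KO replicate 1 (0.80, adjusted p = 0.101). The count of 3 became 5 without DGCR8 KO replicate 2 or without replicate 1 of clone 2.

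LIF sustains the naive state through STAT3. Il6st, the shared receptor subunit gp130, had 109, 129 and 116 CPM in DGCR8 KO, 26.6 and 20.7 CPM in clone 1, 20.7 and 27.1 CPM in clone 2 and 29.0, 36.0 and 36.7 CPM in WT, a log2 difference of 2.30 (SE 0.15, adjusted p = 1.18e-08). The DGCR8 KO libraries lay above all others. Of 11 tested members it was the only call, 4 were higher in DGCR8 KO at the adjusted p and none in DDX6 KO, and the median was 0.05, −0.06 with scaling by total counts alone and 0.09 without chromosomes 6 and 8.

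FGF and ERK genes, which report the pathway that one of the 2i inhibitors blocks, split between the knockouts. Etv4, a transcription factor induced by ERK, had 25.3, 25.2 and 63.8 CPM in DGCR8 KO and 85.0, 89.5, 97.0 and 91.9 CPM in DDX6 KO, a log2 difference of −1.44 (SE 0.22, adjusted p = 7.76e-05), and the early response gene Ier3 differed by −1.53 (SE 0.26, adjusted p = 0.000208). In the other direction Il17rd, a feedback inhibitor of FGF receptors, was called at 1.07 (SE 0.15, adjusted p = 3.21e-05), but not without DGCR8 KO replicate 1 (0.94), without replicate 2 of clone 2 (0.99) or with scaling by total counts alone (0.96). Etv5 (0.94, adjusted p = 0.000515), the ligand gene Fgf4 (0.62, 0.000192) and the inhibitor Spry2 (0.52, 0.00823) were higher in DGCR8 KO without reaching the limit, although Etv5 passed it without DGCR8 KO replicate 2 (1.16) or replicate 2 of clone 2 (1.05), and Fgfr1 on chromosome 8 (−0.50, 0.0127) in DDX6 KO. Etv4 and Etv5, close relatives, thus differed in opposite directions. Fgfr2 and Spry1, the remaining calls, had group means under 5 CPM and lost their calls without DGCR8 KO replicate 3, and the count of 4 higher in DDX6 KO fell to 2 without that library, without either library of clone 1 or without replicate 1 of clone 2. Dusp5, Dusp6, Egr1, Etv1, Fos, Phlda1, Spred1, Spred2 and Spry4 did not pass the adjusted p, and the median over 18 members was 0.09, −0.02 with scaling by total counts alone and 0.14 without chromosomes 6 and 8.

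Among 20 tested genes of the YAP and TAZ pathway and its targets, 4 were called higher in DGCR8 KO and 2 in DDX6 KO, with a median of 0.15. Ccn2, a secreted target of YAP, had 468, 431 and 207 CPM in DGCR8 KO, 78.7 and 68.5 CPM in clone 1, 122 and 52.2 CPM in clone 2 and 227, 231 and 162 CPM in WT, a log2 difference of 2.21 (SE 0.26, adjusted p = 5.77e-06). Ptpn14, a phosphatase that binds YAP, differed by 2.04 (SE 0.28, adjusted p = 2.70e-05) and the receptor kinase gene Axl by 3.14 (SE 0.45, adjusted p = 3.63e-05), and Lats2, described above, is the kinase that inhibits YAP. The calls in the other direction were of genes at low level, and the count of 2 fell to 1 when DGCR8 KO replicate 2 or 3, either library of clone 1, or replicate 2 of clone 2 was left out.

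Few factors of naive pluripotency were called, 5.88% against 17.1% of all tested genes. Of 17 tested, 1 was: Tbx3, a T-box factor of the naive network, had 333, 308 and 383 CPM in DGCR8 KO, 673 and 707 CPM in clone 1, 694 and 709 CPM in clone 2 and 452, 411 and 541 CPM in WT, a log2 difference of −1.03 (SE 0.10, adjusted p = 5.54e-07), or −0.96 without DGCR8 KO replicate 2. Nanog, on chromosome 6, had 451 ± 69.0 CPM (SD, n = 3) in DGCR8 KO and 880.3 ± 61.6 CPM (SD, n = 4) in DDX6 KO (−0.97, adjusted p = 3.11e-06), and the chromosome's median was −0.54. Its difference reached −1.09 without DGCR8 KO replicate 2, −1.01 without replicate 2 of clone 1 and −1.08 with scaling by total counts alone, where it was called. At the adjusted p Klf4 (−0.64, 0.00171) and Zfp42 on chromosome 8 (−0.36, 0.0103) were also higher in DDX6 KO, and relative to the median of its chromosome Zfp42 was at 0.09 (adjusted p = 0.514). Sox2 (0.62, 0.000436), Klf2 on chromosome 8 (0.54, 0.00157), Tcl1 (0.53, 0.0439) and Sall4 (0.41, 0.0202) were higher in DGCR8 KO. Pou5f1, the core pluripotency factor Oct4, had 60.7 ± 11.6 CPM (SD, n = 3) in DGCR8 KO and 52.4 ± 6.05 CPM (SD, n = 4) in DDX6 KO (adjusted p = 0.343). Esrrb, Tfcp2l1, Klf5, Nr5a2, Nr0b1, Prdm14, Gbx2 and, on chromosome 6, Dppa3 did not pass the adjusted p. The median was 0.07, −0.04 with scaling by total counts alone and 0.18 without chromosomes 6 and 8.

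Markers of the formative and primed epiblast were higher in DGCR8 KO: 8 of 13 tested at the adjusted p, 5 of them called, and none in DDX6 KO, with a median of 0.64. Otx2, a homeobox factor of the formative state, had 41.7, 56.5 and 38.8 CPM in DGCR8 KO, 8.50 and 8.07 CPM in clone 1, 9.98 and 4.85 CPM in clone 2 and 39.3, 39.8 and 31.2 CPM in WT, a log2 difference of 2.58 (SE 0.25, adjusted p = 8.03e-07). The DDX6 KO libraries were below both DGCR8 KO and WT. Zic2 (1.27, SE 0.23, adjusted p = 0.000313) and the epithelial factor Grhl2 (1.20, SE 0.28, adjusted p = 0.00228) were called with Lef1, as was Foxd3, named after its values were seen (1.12, adjusted p = 0.000196). The count of 5 fell to 3 without DGCR8 KO replicate 2, where Foxd3 was at 0.91 and Lef1 was below the level for a test.

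Primitive endoderm genes differed the other way, with 5 of 9 tested called higher in DDX6 KO and none in DGCR8 KO, 6 against 1 at the adjusted p. The median was −1.14, or −0.33 without chromosomes 6 and 8. By edgeR and by DESeq2 1 member was called higher in DGCR8 KO. Dab2, an endocytic adaptor of the extraembryonic endoderm, had 1.24, 0.336 and 1.64 CPM in DGCR8 KO, 19.2 and 18.96 CPM in clone 1, 16.8 and 12.3 CPM in clone 2 and 8.35, 7.33 and 3.69 CPM in WT, a log2 difference of −3.94 (SE 0.55, adjusted p = 2.96e-05). The laminin chain gene Lamb1 differed by −2.26 (SE 0.22, adjusted p = 6.32e-07). The remaining 3 calls were matrix genes, Lama1 (−1.58, 0.0477) and, on chromosome 8, Col4a1 (−1.14, 0.00177) and Col4a2, the last of them named after its values were seen (−1.36, 0.00879). The count of 5 fell to 2 without DGCR8 KO replicate 2, where Col4a2 was at −0.87. Lama1 overlapped between the groups and lost its call without DGCR8 KO replicate 1 or 2, replicate 2 of clone 1 or replicate 2 of clone 2 (adjusted p from 0.106 to 0.213). The lineage-defining factors Gata4, Gata6, Sox17 and Foxa2 did not reach the level for a test, and the genes called, an adaptor and matrix genes, are also expressed by other cells. In bulk RNA fewer cells of a type and less RNA per cell cannot be told apart.

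Markers of other lineages gave a few calls at low to moderate level. Tfap2c, a factor of trophoblast and germ cells, had 164 ± 27.6 CPM (SD, n = 3) in DGCR8 KO and 60.2 ± 23.3 CPM (SD, n = 4) in DDX6 KO, a log2 difference of 1.497 (SE 0.21, adjusted p = 2.97e-05), and was the only call among 4 tested trophoblast markers. Of 6 tested neural progenitor markers 2 were called higher in DDX6 KO and 1 in DGCR8 KO, against 2 and 3 at the adjusted p, with a median of 0.02, or 0.54 without chromosomes 6 and 8. Sox4, with 16.1, 11.4 and 13.9 CPM in DGCR8 KO and 90.9, 79.3, 74.9 and 63.9 CPM in DDX6 KO, differed by −2.46 (SE 0.21, adjusted p = 1.73e-07). Sox1, on chromosome 8, had 19.8, 19.9 and 22.1 CPM and 71.3, 69.5, 117 and 114 CPM in the same order and differed by −2.14 (SE 0.23, adjusted p = 2.79e-06). All DDX6 KO libraries exceeded all WT libraries for both. The call in the other direction, named after its values were seen, was Pax6 at 2.98 (SE 0.63, adjusted p = 0.00109), with means under 10 CPM, and it was below the level for a test when any DGCR8 KO library was left out. Of 4 tested mesoderm and primitive streak markers 1 was called in each direction and the median was −0.58, or −0.82 without chromosomes 6 and 8. Evx1, on chromosome 6, was higher in DGCR8 KO at 2.53 (SE 0.49, adjusted p = 0.000583), and Mesp2, named after its values were seen and under 10 CPM, in DDX6 KO at −2.25 (SE 0.65, adjusted p = 0.00988). Without DGCR8 KO replicate 3 Mesp2 was at −1.31 (adjusted p = 0.0671) and lost its call. The 2 tested feeder fibroblast markers, Fbn1 and Col1a1, named after their values were seen, were called higher in DDX6 KO with means of 7.31 and 4.11 CPM there, and Col1a1 was below the level for a test when either library of clone 1 or replicate 2 of clone 2 was left out. Of 6 tested genes of the 2-cell state 4 were called higher in DDX6 KO, all with means under 10 CPM. The genes called have near-identical copies that make their counts uncertain. Of the tested members, 3 held at most 3 counts in each DGCR8 KO library. They passed the filter through DDX6 KO alone, so a call could only go in that direction. The count of 4 fell to 1 without replicate 2 of clone 1 or either library of clone 2. Leaving out a DDX6 KO library can take such members below the level for a test.

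Of 20 tested genes of the interferon response and of RNA sensing 8 were called higher in DGCR8 KO and 1 in DDX6 KO. At the adjusted p 11 were higher in DGCR8 KO and 4 in DDX6 KO, 5 did not pass, and the median was 0.73. Ifitm1, an antiviral membrane protein also expressed in early embryos, had 240.5, 242 and 238 CPM in DGCR8 KO, 21.4 and 22.5 CPM in clone 1, 30.3 and 31.1 CPM in clone 2 and 38.3, 44.3 and 45.5 CPM in WT. Its log2 difference was 3.19 (SE 0.14, adjusted p = 3.63e-10). Irf1, a transcription factor of the response, had 356, 202 and 166 CPM in DGCR8 KO and 100.1, 63.2, 77.7 and 44.5 CPM in DDX6 KO and differed by 1.77 (SE 0.25, adjusted p = 2.77e-05). Irf9, a subunit of the factor that interferon activates, differed by 1.92 (SE 0.19, adjusted p = 8.76e-07) with 85.4 ± 23.2 CPM (SD, n = 3) against 21.7 ± 2.49 CPM (SD, n = 4). The DGCR8 KO libraries lay above DDX6 KO and WT for these 3 genes. Named after their values were seen, the other 5 calls were Ddx58 (the sensor RIG-I), Zbp1, Rsad2, Gbp2 and Psmb8. Zbp1, Rsad2, Gbp2 and Psmb8 had means under 10 CPM in both groups and passed the filter through DGCR8 KO alone. For them a call could only go in that direction, and none could be tested when a DGCR8 KO library was left out. The count of 8 fell to 5 when any DGCR8 KO library was left out. The class I histocompatibility gene H2-K1 was called in the other direction at −1.42 (SE 0.27, adjusted p = 0.000471).

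G1/S regulators differed in cyclin D genes. Ccnd1, cyclin D1, had 1064, 707 and 1009 CPM in DGCR8 KO, 225 and 247 CPM in clone 1, 258 and 276 CPM in clone 2 and 318, 301.6 and 432 CPM in WT, a log2 difference of 1.86 (SE 0.13, adjusted p = 2.72e-08). Ccnd2, cyclin D2 on chromosome 6, had 148, 112 and 137 CPM in DGCR8 KO and 28.5, 22.1, 25.7 and 21.4 CPM in DDX6 KO, a log2 difference of 2.44 (SE 0.16, adjusted p = 1.03e-08), against the direction of its chromosome. These were the only 2 calls among 27 tested members, 7.41% against 7.55% of all tested genes called higher in DGCR8 KO. At the adjusted p 10 were higher in DGCR8 KO and 4 in DDX6 KO, against 22.4% and 21.9% of all tested genes. The median was 0.09, or −0.03 with scaling by total counts alone. Both 3′ UTRs hold 1 match of 7 bases to the ESCC seed.

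The MYC network had 3 calls among 11 tested, all higher in DGCR8 KO, and a median of 0.42. Mycn, the MYC paralog of embryonic stem cells, had 207 ± 71.9 CPM (SD, n = 3) in DGCR8 KO and 92.1 ± 21.9 CPM (SD, n = 4) in DDX6 KO, a log2 difference of 1.15 (SE 0.20, adjusted p = 0.000192), or 0.89 without DGCR8 KO replicate 2. Max, the partner of MYC proteins, differed by 1.03 (SE 0.12, adjusted p = 3.55e-06) and Mxi1, a competing repressor, by 1.05 (SE 0.17, adjusted p = 0.000130). Both lost their calls with scaling by total counts alone (0.92 and 0.94) or by genes outside chromosomes 6 and 8 (0.98 and 0.999), Max also without replicate 2 of clone 2 (0.93) and Mxi1 without replicate 1 of clone 1 (0.95).

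Genes of cell death and of the p53 response had calls in both directions. Pmaip1, the BH3-only protein Noxa, had 153, 135 and 81.4 CPM in DGCR8 KO and 38.4, 18.6, 36.0 and 22.2 CPM in DDX6 KO, a log2 difference of 2.14 (SE 0.24, adjusted p = 3.85e-06). Bcl2l11, which encodes Bim, differed by 1.20 (SE 0.15, adjusted p = 7.84e-06). Bid, on chromosome 6, was higher in DDX6 KO, at −1.88 (SE 0.17, adjusted p = 3.97e-07). In all, 2 of 12 BCL2 family members were called in each direction. Of 20 p53 targets 2 were called higher in DGCR8 KO and 1, the stress-induced cytokine Gdf15 on chromosome 8, higher in DDX6 KO (−1.14, groups overlapping, −0.59 without DGCR8 KO replicate 2), with a median of 0.18.

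LIN28 blocks the maturation of let-7 miRNAs, which are largely absent without DGCR8. No gene of the LIN28 and let-7 list was called higher in DGCR8 KO and 4 of 14 were called higher in DDX6 KO, while 3 against 6 passed the adjusted p. The list's median was −0.17, or −0.04 without chromosomes 6 and 8. Lin28a had 1.55, 2.02 and 5.31 CPM in DGCR8 KO, 18.5 and 18.3 CPM in clone 1, 13.5 and 23.7 CPM in clone 2 and 62.4, 47.8 and 77.6 CPM in WT, a log2 difference of −2.82 (SE 0.43, adjusted p = 6.24e-05). Both knockouts lay below WT, DGCR8 KO further. Dusp9, an ERK phosphatase on the X chromosome, differed by −1.82 (SE 0.20, adjusted p = 2.62e-06), Igf2bp3, an mRNA-binding protein gene on chromosome 6, by −1.56 (SE 0.12, adjusted p = 4.40e-08), and Arid3a by −1.12 (SE 0.18, adjusted p = 0.000124), which became −0.98 without DGCR8 KO replicate 1.

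Targets of ATF4, the transcription factor of the integrated stress response, were higher in DDX6 KO. Of 28 tested 10 were called there and none in DGCR8 KO, 16 against 2 passed the adjusted p, and the median was −0.59. Slc7a5, an amino acid transporter on chromosome 8, had 85.6, 74.4 and 85.8 CPM in DGCR8 KO, 241 and 443 CPM in clone 1, 290.2 and 252 CPM in clone 2 and 204, 273 and 295 CPM in WT, a log2 difference of −1.86 (SE 0.18, adjusted p = 8.11e-07). Trib3, a pseudokinase that feeds back on ATF4, had 5.87, 10.1 and 21.3 CPM in DGCR8 KO and 43.6, 41.8, 31.7 and 53.1 CPM in DDX6 KO, a log2 difference of −2.02 (SE 0.31, adjusted p = 7.73e-05). The stress protein gene Nupr1 differed by −2.07 (SE 0.44, adjusted p = 0.00115) and Mthfd2, a mitochondrial folate enzyme on chromosome 6, by −1.69 (SE 0.15, adjusted p = 2.35e-07). For Slc7a5 the DGCR8 KO libraries lay below WT and the DDX6 KO libraries overlapped it. Of the 10 calls 3 lie on chromosomes 6 or 8. Atf4 itself was named after its values were seen: its log2 difference was −0.35 (adjusted p = 0.0848). Of 18 genes of the unfolded protein response 1 was called, Herpud1 on chromosome 8 (−1.22, SE 0.20, adjusted p = 0.000133).

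Glycolytic genes were called in both directions, 4 of 21 higher in DGCR8 KO and 3 in DDX6 KO, with a median of 0.12, or 0.29 without chromosomes 6 and 8. Slc2a3, the glucose transporter GLUT3 on chromosome 6, had 537, 584 and 557 CPM in DGCR8 KO, 2277 and 1768 CPM in clone 1, 1989 and 1639.6 CPM in clone 2 and 1024, 1024 and 1008 CPM in WT, a log2 difference of −1.77 (SE 0.11, adjusted p = 7.07e-09). Pdk1, which shuts pyruvate out of the mitochondrial cycle, had 169.7, 145 and 146 CPM in DGCR8 KO and 54.0, 46.0, 41.7 and 35.9 CPM in DDX6 KO, a log2 difference of 1.81 (SE 0.14, adjusted p = 7.56e-08). Ldhb, a lactate dehydrogenase subunit on chromosome 6, differed by 2.46 (SE 0.22, adjusted p = 3.88e-07) and the aldolase gene Aldoc by 1.62 (SE 0.18, adjusted p = 3.85e-06). For Slc2a3 the groups lay on opposite sides of WT.

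All 7 tested mRNAs encoded by the mitochondrial genome were higher in DGCR8 KO at the adjusted p, with a median of 0.95 against −0.01 over all tested genes. mt-Nd4, a subunit of complex I, had 1200.3, 1825 and 1386 CPM in DGCR8 KO, 585, 749, 592 and 664 CPM in DDX6 KO and 1066, 1051 and 963 CPM in WT, a log2 difference of 1.17 (SE 0.13, adjusted p = 2.80e-06). mt-Co1, of complex IV, differed by 1.08 (SE 0.12, adjusted p = 4.61e-06). These 2 passed the limit for a call, mt-Co1 not without DGCR8 KO replicate 2 (0.92) or with scaling by total counts alone (0.97), and the count was 5 without DGCR8 KO replicate 1 and 1 without replicate 2. Of 72 nuclear-encoded subunits of the respiratory chain 1 was called, Sdhd of complex II at −1.32 (SE 0.30, adjusted p = 0.00185), or −0.87 without DGCR8 KO replicate 3, and the median was 0.04, −0.07 with scaling by total counts alone and 0.08 without chromosomes 6 and 8. Of 76 cytosolic ribosomal protein genes 25 were higher in DGCR8 KO and 3 in DDX6 KO at the adjusted p, by a median of 0.18, and the only call was Rpl9 (−1.29, SE 0.19, adjusted p = 4.64e-05).

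In sterol synthesis 1 of 22 genes was called higher in DGCR8 KO, Ebp, an isomerase of the pathway (1.12, adjusted p = 2.57e-06), and 3 higher in DDX6 KO, Msmo1 on chromosome 8 (−1.56, SE 0.14, adjusted p = 3.61e-07), Tm7sf2 (−1.36, 0.00203) and Hsd17b7 (−1.21, 7.08e-05). The list's median was −0.29, or −0.13 without chromosomes 6 and 8. Lysosomal genes had 11 of 23 members higher in DGCR8 KO and 4 in DDX6 KO at the adjusted p. Lamp2, a membrane protein of the lysosome whose 3′ UTR holds 2 seed matches, had 587, 576 and 544 CPM in DGCR8 KO, 222 and 209 CPM in clone 1, 170.4 and 165 CPM in clone 2 and 106, 136 and 134 CPM in WT, a log2 difference of 1.59 (SE 0.11, adjusted p = 2.94e-08). Every DDX6 KO library lay above every WT library and below every DGCR8 KO library. In the other direction the enzyme genes Ctsl (−1.40, SE 0.13, adjusted p = 4.17e-07) and Neu1 (−1.55, SE 0.24, adjusted p = 7.68e-05) were called.

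**Figure D4:**
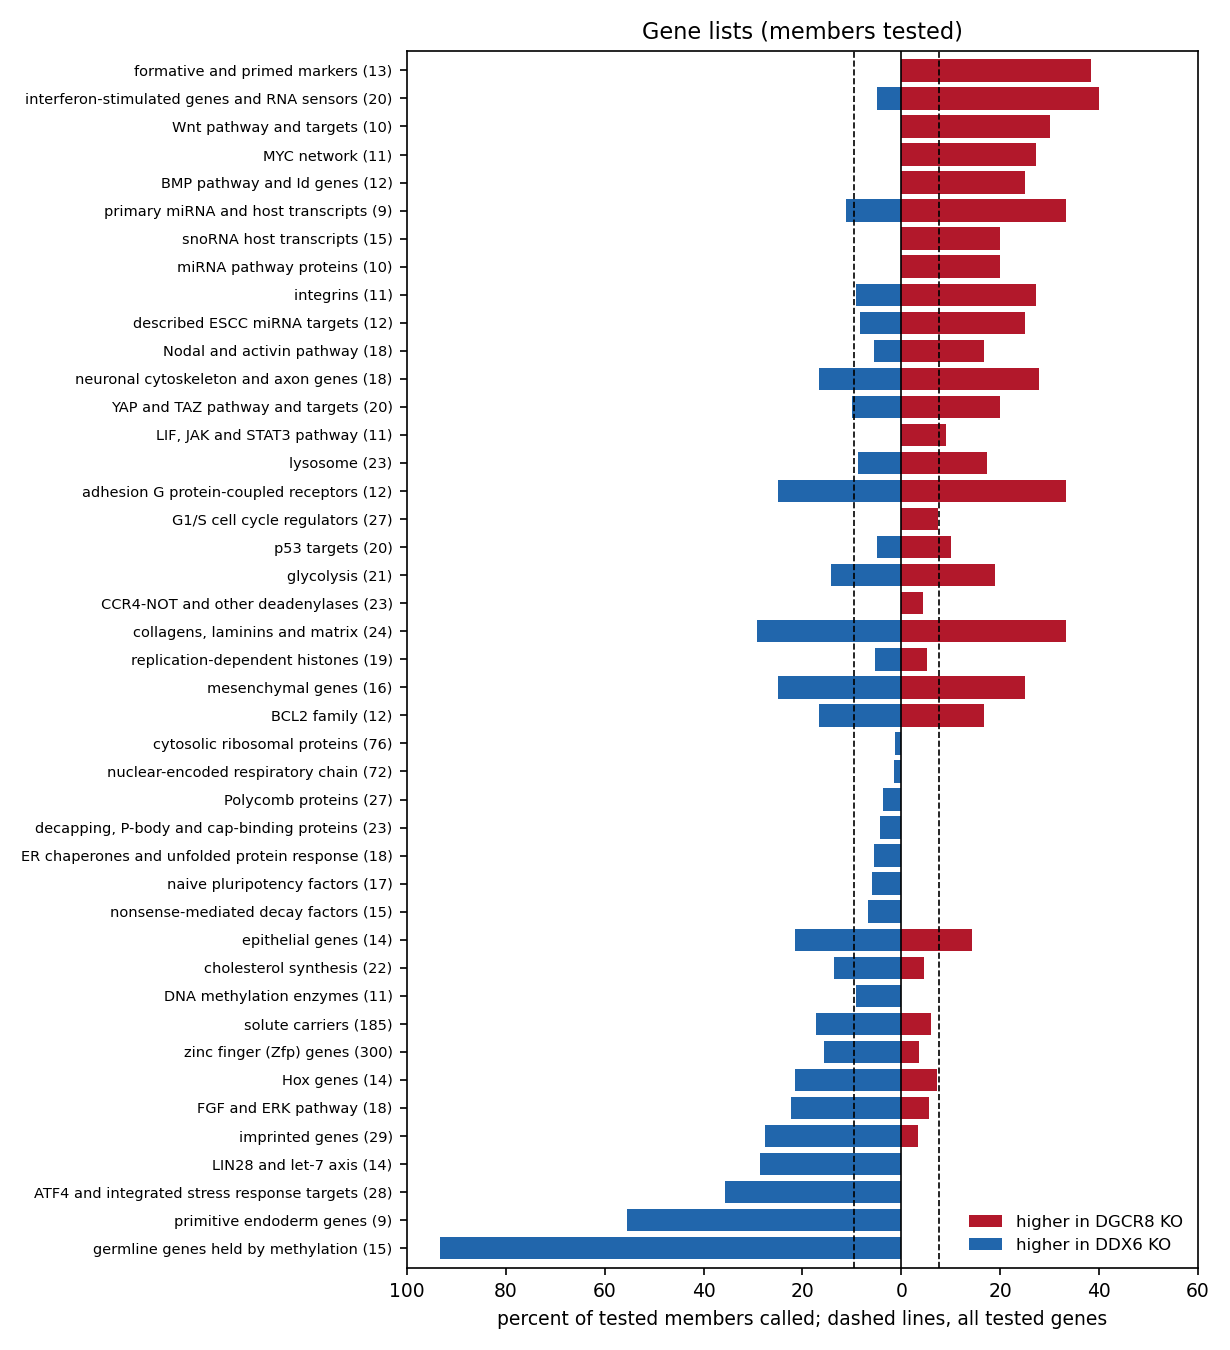
Percent of the tested members of each gene list with at least 8 tested members (vertical axis, number tested in parentheses) that were called higher in DGCR8 KO, drawn to the right, or higher in DDX6 KO, drawn to the left; dashed lines mark all tested genes, 7.55% and 9.59%. Interferon-stimulated genes and formative markers reach furthest to the right, and germline genes, with 14 of 15 called, furthest to the left. The shares of the interferon and germline lists are partly set by the filter.

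Structural genes divided the knockouts by family member. Among intermediate filaments, Nefl, the light neurofilament chain, had 612, 264 and 587 CPM in DGCR8 KO, 28.8 and 20.4 CPM in clone 1, 28.2 and 25.96 CPM in clone 2 and 114, 66.3 and 116 CPM in WT, a log2 difference of 4.14 (SE 0.29, adjusted p = 2.13e-08). Nefm, the medium chain and its neighbour on chromosome 14, differed by 3.46 (SE 0.44, adjusted p = 1.14e-05). Vim, vimentin, had 338, 412 and 427 CPM in DGCR8 KO, 81.3 and 74.1 CPM in clone 1, 74.9 and 94.1 CPM in clone 2 and 74.2, 129.9 and 147 CPM in WT, a log2 difference of 2.26 (SE 0.12, adjusted p = 1.60e-09). Des, desmin, went the other way with 1.24, 1.68 and 3.68 CPM in DGCR8 KO and 22.2, 26.3, 29.2 and 38.5 CPM in DDX6 KO, a log2 difference of −3.81 (SE 0.46, adjusted p = 7.74e-06). For Nefl the DGCR8 KO libraries were above WT and the DDX6 KO libraries below it.

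Of 18 neuronal cytoskeleton and axon genes 5 were called higher in DGCR8 KO and 3 in DDX6 KO. Gap43, a growth cone protein, had 1.24, 0.673 and 0 CPM in DGCR8 KO and 10.7, 6.67, 15.7 and 15.4 CPM in DDX6 KO, a log2 difference of −4.25 (SE 0.71, adjusted p = 0.000152), and Tubb3, a neuronal tubulin on chromosome 8, differed by −1.33 (SE 0.22, adjusted p = 0.000162). Mesenchymal genes had 4 calls in each direction among 16: besides Axl and Vim, the galectin gene Lgals1 (−2.06, SE 0.20, adjusted p = 5.95e-07) and the calcium-binding protein gene S100a6 (−2.05, SE 0.27, adjusted p = 1.62e-05) were higher in DDX6 KO, where the count of 4 fell to 2 without DGCR8 KO replicate 2. Of 14 epithelial genes, Epcam (1.21, SE 0.12, adjusted p = 6.64e-07) and Grhl2 were called higher in DGCR8 KO, and the tight junction gene Cldn4 (−1.28, SE 0.12, adjusted p = 4.90e-07) and the keratin gene Krt18 (−1.31, adjusted p = 0.00670) were among 3 called higher in DDX6 KO. Without replicate 2 of clone 2 Grhl2 was at 0.88 and Epcam was the only call higher in DGCR8 KO. Calls in both lists thus went both ways.

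Matrix genes were called in both directions more often than the 7.55% and 9.59% of all tested genes, 8 of 24 higher in DGCR8 KO and 7 in DDX6 KO, the latter 4 without DGCR8 KO replicate 2. Fras1, a basement membrane protein, had 52.2, 24.2 and 24.9 CPM in DGCR8 KO, 5.54 and 1.40 CPM in clone 1, 3.57 and 2.85 CPM in clone 2 and 0.983, 0.349 and 0.462 CPM in WT, a log2 difference of 3.37 (SE 0.45, adjusted p = 1.94e-05). Col2a1, a fibrillar collagen, differed by 3.29 (SE 0.46, adjusted p = 2.70e-05). Lama4, a laminin chain, had 1.55, 1.35 and 1.64 CPM in DGCR8 KO and 17.4, 21.4, 14.6 and 14.8 CPM in DDX6 KO, a log2 difference of −3.34 (SE 0.43, adjusted p = 1.34e-05), in the direction of Lamb1 above. Of 11 integrin genes Itgb5 (1.96, SE 0.17, adjusted p = 2.10e-07), Itgb4 (1.10, adjusted p = 0.00122, 0.99 with scaling by total counts alone) and Itgb7 (1.15, 0.00835, 0.97 without replicate 1 of clone 1) were called higher in DGCR8 KO, and the integrin-binding protein gene Itgb1bp1 (−1.30, SE 0.26, adjusted p = 0.000649) higher in DDX6 KO.

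Adhesion G protein-coupled receptors held some of the widest gaps. Adgrg6, which acts in Schwann cells, had 58.1, 59.2 and 63.0 CPM in DGCR8 KO, 0.739 and 0.351 CPM in clone 1, 1.78 and 0 CPM in clone 2 and 4.91, 5.59 and 4.39 CPM in WT, a log2 difference of 6.63 (SE 0.54, adjusted p = 1.32e-07). Adgrg5, on chromosome 8, had 21.9, 11.8 and 9.81 CPM in DGCR8 KO and 3 counts in all over the 4 DDX6 KO libraries, a pooled ratio of 59.4 (95% counting interval 19.9 to 292). Adgrl2 was higher in DGCR8 KO (1.75, SE 0.18, adjusted p = 1.60e-06) and Adgrl1, on chromosome 8, in DDX6 KO (−1.52, SE 0.16, adjusted p = 2.37e-06). Of 12 tested, 4 were called higher in DGCR8 KO and 3 in DDX6 KO, and the 4 became 1 without DGCR8 KO replicate 1 and 2 without replicate 2 or 3. Adgrg6 and Adgrg5 passed the filter through DGCR8 KO alone. Both fell below the level for a test when any DGCR8 KO library was left out, so part of that drop is set by the filter. Of 185 solute carriers 11 were called higher in DGCR8 KO and 32 in DDX6 KO, against 7.55% and 9.59% of all tested genes. Those named are the fatty acid transporter Slc27a2 (3.47, SE 0.37, adjusted p = 2.13e-06), the sodium-coupled transporters Slc5a11 (2.77, SE 0.35, adjusted p = 1.29e-05) and Slc5a1 (2.48, SE 0.27, adjusted p = 2.20e-06), and, in the other direction, Slc16a14 (−3.07, SE 0.46, adjusted p = 5.73e-05).

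Germline genes that embryonic stem cells silence through DNA methylation had the largest share of members called among the lists with at least 8 tested members. Of 15 tested 14 were called higher in DDX6 KO and none in DGCR8 KO, against 9.59% of all tested genes called higher in DDX6 KO, 14 against 1 passed the adjusted p, and the median was −1.86. Of 22 listed genes only these 15 were tested, and some, such as Mov10l1, passed the filter through the DDX6 KO libraries alone. The share is therefore partly set by the filter, although Ddx4 and Dazl, below, passed it in both knockouts. Mov10l1, a helicase of the piRNA pathway, had 1.85, 2.02 and 0.818 CPM in DGCR8 KO, 17.0 and 22.1 CPM in clone 1, 16.8 and 19.4 CPM in clone 2 and 1.97, 3.49 and 2.54 CPM in WT, a log2 difference of −3.48 (SE 0.43, adjusted p = 9.29e-06). Sycp1, of the synaptonemal complex, had 0.309, 4.04 and 1.23 CPM in DGCR8 KO and 14.4, 16.5, 9.63 and 17.1 CPM in DDX6 KO and differed by −3.39 (SE 0.60, adjusted p = 0.000248). Stk31, a germ cell kinase on chromosome 6, differed by −2.50 (SE 0.36, adjusted p = 3.63e-05) and Syce1, also of the synaptonemal complex, by −2.13 (SE 0.33, adjusted p = 8.15e-05).

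The germ cell factors drawn in the plot of levels by library, Ddx4 and Dazl, were named after their values were seen. Ddx4, the germ cell helicase Vasa, had 14.5, 20.5 and 12.3 CPM in DGCR8 KO, 37.7, 49.8, 52.4 and 51.3 CPM in DDX6 KO and 11.3, 17.8 and 9.01 CPM in WT. Dazl, an RNA-binding protein of germ cells, had 25.0, 27.9 and 11.4 CPM, 80.2, 74.8, 63.1 and 75.0 CPM and 51.1, 54.1 and 30.2 CPM in the same order. DDX6 KO was above WT for both, while DGCR8 KO overlapped WT for Ddx4 and lay below it for Dazl. Hormad1, also named after its values were seen, was the member not called, at 0.63 (adjusted p = 0.0119), higher in DGCR8 KO, and 2 of the 14 calls lie on chromosome 6.

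Of 11 genes for DNA methylation and its removal 1 was called, Tet3, a 5-methylcytosine oxidase on chromosome 6, with 23.6 ± 6.46 CPM (SD, n = 3) in DGCR8 KO and 59.7 ± 4.71 CPM (SD, n = 4) in DDX6 KO, a log2 difference of −1.35 (SE 0.18, adjusted p = 2.10e-05). The list's median was −0.20, or −0.12 without chromosomes 6 and 8.

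Of 29 tested imprinted genes, expressed from 1 parental allele, 8 were called higher in DDX6 KO and 1, Mirg, in DGCR8 KO. At the adjusted p 12 were higher in DDX6 KO and 4 in DGCR8 KO, 13 did not pass, and the median was −0.50, or −0.19 without chromosomes 6 and 8. Peg10, on chromosome 6, had 4.33, 2.69 and 3.68 CPM in DGCR8 KO, 78.3 and 49.1 CPM in clone 1, 78.4 and 62.8 CPM in clone 2 and 13.8, 9.77 and 11.1 CPM in WT, a log2 difference of −4.16 (SE 0.38, adjusted p = 4.24e-07). Mest, also on chromosome 6, had 59.97, 48.1 and 33.5 CPM in DGCR8 KO and 363, 279.8, 484 and 412 CPM in DDX6 KO, beside 72.2, 75.1 and 59.1 CPM in WT, and differed by −3.01 (SE 0.20, adjusted p = 1.78e-08). The median of chromosome 6 was −0.54. Ppp1r9a, again on chromosome 6, differed by −1.80 (SE 0.23, adjusted p = 1.56e-05) and Peg12, on chromosome 7, by −2.45 (SE 0.37, adjusted p = 6.24e-05). Of the 9 calls 4 lie on chromosome 6.

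X-linked gene families expressed in the germ line also had calls higher in DDX6 KO, among few tested members. Xlr3a had 0, 0 and 0.409 CPM in DGCR8 KO, 28.5 and 30.9 CPM in clone 1, 29.6 and 38.5 CPM in clone 2 and 20.6, 11.2 and 18.2 CPM in WT. Its counts, uncertain because near-identical copies lie beside it, gave a pooled DDX6 KO to DGCR8 KO ratio of 279 (95% counting interval 49.8 to 11061) and an adjusted p of 1.25e-07. Of 13 Xlr genes only 3 were tested, each with 1 count in all over the DGCR8 KO libraries. They thus passed the filter through DDX6 KO alone, and a call could only go in that direction. All 3 were called higher in DDX6 KO, with a median of −5.11, or −2.85 with genes at the floor set to their bound. Of 4 tested Rhox homeobox genes, which also have near copies, 3 were called higher in DDX6 KO, among them Rhox6 (−2.53, SE 0.44, adjusted p = 0.000236) and Rhox5 (−3.11, SE 0.86, adjusted p = 0.00767), and the median was −2.82, or −2.16 at the bounds. Rhox5 had 1.24, 1.68 and 2.04 CPM in DGCR8 KO, 31.8, 29.8, 5.70 and 10.3 CPM in DDX6 KO and 45.2, 37.0 and 36.0 CPM in WT, and both knockouts lay below WT.

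Of 300 zinc finger genes with a Zfp symbol 47 were called higher in DDX6 KO and 11 higher in DGCR8 KO, with a median of −0.24, or −0.13 without chromosomes 6 and 8. Of those 58 calls 15 lie on chromosomes 6 or 8. The named members were Zfp775 on chromosome 6 (−2.16, SE 0.23, adjusted p = 2.35e-06), Zfp516 (−2.16, SE 0.19, adjusted p = 2.32e-07), Zfp30 (−2.14, SE 0.33, adjusted p = 6.56e-05) and Zfp799 (−1.99, SE 0.26, adjusted p = 1.84e-05). Hox genes had 3 calls higher in DDX6 KO and 1 higher in DGCR8 KO among 14, 9 of which did not pass the adjusted p, and their median of 0.51 had the opposite sign to most of the calls. Hoxc4, with 1.24, 1.35 and 2.45 CPM in DGCR8 KO, 14.8, 15.4, 19.6 and 16.5 CPM in DDX6 KO and 16.7, 16.4 and 14.3 CPM in WT, differed by −3.27 (SE 0.41, adjusted p = 1.19e-05). The count of 3 fell to 1 without DGCR8 KO replicate 2. Of 19 replication-dependent histone genes Hist1h2bp (1.11, adjusted p = 0.0218) and Hist1h2bc (−1.22, 0.00306) were called in opposite directions, Hist1h2bp not without DGCR8 KO replicate 3, replicate 2 of clone 1 or replicate 1 of clone 2 (adjusted p from 0.0573 to 0.0849).

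Genes of the snoRNA class, which guide the modification of other RNAs and mostly lie in introns of host genes, were looked at after it was seen that they were called in 1 direction. Of 59 tested, 34 were called, all higher in DDX6 KO, with a median of −1.41. Several of the called genes stayed under 3 CPM in every DGCR8 KO library. They passed the filter through DDX6 KO alone, so a call could only go in that direction. The count is therefore partly set by the filter, although Snord13 and Gm22748, below, passed it in both knockouts. At an unadjusted p under 0.05, 2 were higher in DGCR8 KO, none of them at the adjusted p. The summed level was 774 to 1255 CPM in DGCR8 KO, 3794 to 4729 CPM in DDX6 KO and 2628 to 3265 CPM in WT. With clone 1 as the only DDX6 KO clone 19 were called and with clone 2 alone 20. Snord13, on chromosome 8, had 17.6, 6.06 and 13.9 CPM in DGCR8 KO, 403 and 471 CPM in clone 1, 545 and 422 CPM in clone 2 and 250.0, 241 and 238 CPM in WT, a log2 difference of −5.30 (SE 0.28, adjusted p = 1.07e-09). DGCR8 KO was below WT and DDX6 KO above it in every library.

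The genes that hold the called snoRNAs gave no call. Of the 59, 52 lie inside another tested gene on the same strand. The tested hosts of the called snoRNAs, 26 genes, had a median log2 difference of 0.11 with a range from −0.78 to 0.93, and none was called, though at the adjusted p 8 were higher in DGCR8 KO and 4 in DDX6 KO. Gm22748, named after its values were seen, had 57.8, 33.3 and 65.8 CPM in DGCR8 KO and 466, 391, 464 and 411 CPM in DDX6 KO, a log2 difference of −3.11 (SE 0.17, adjusted p = 1.71e-09), while its host Odc1, ornithine decarboxylase, was at 0.05 (adjusted p = 0.797). Of 15 listed non-coding snoRNA hosts 8 were higher in DGCR8 KO at the adjusted p and none in DDX6 KO, and Zfas1, at 1.26 (SE 0.14, adjusted p = 3.78e-06), was among 3 calls. Counting from a poly(A)-primed library, in which short RNAs without a tail are not the intended target, was the only readout of these genes here.

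**Figure D5:**
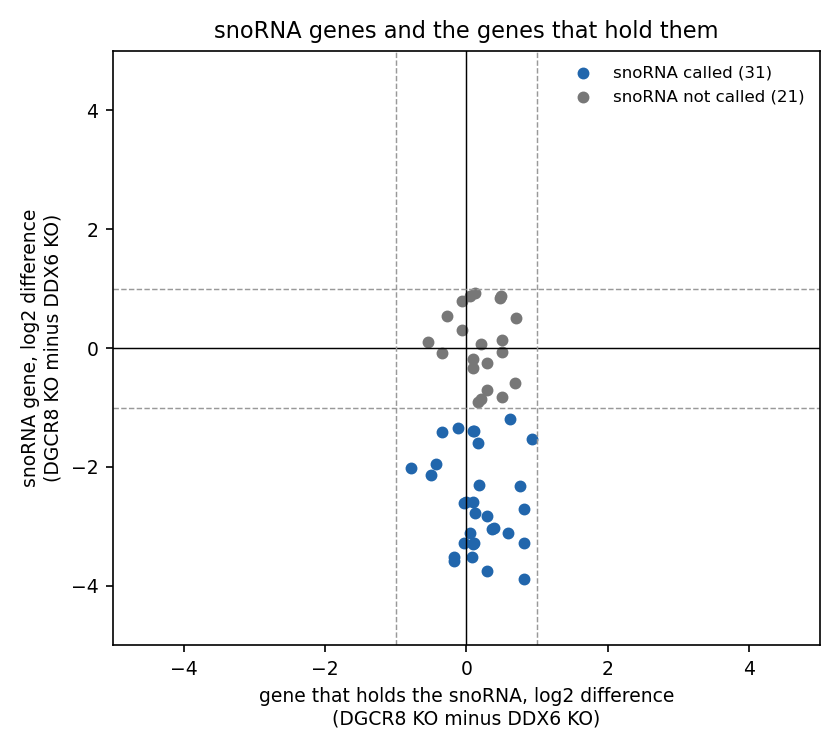
Log2 difference (DGCR8 KO minus DDX6 KO) of each snoRNA gene (vertical axis) against that of the tested gene in which it lies (horizontal axis), 1 point a snoRNA, with dashed lines at 1 and −1. The called snoRNAs lie below −1 while the genes that hold them lie between −0.78 and 0.93.

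Outside the lists, the genes picked by rank had varied roles. Of those highest in DGCR8 KO, Cfap206, a ciliary protein, had 27.2, 26.2 and 24.9 CPM in DGCR8 KO and 1 count in all over the 4 DDX6 KO libraries, beside 8.84, 6.63 and 8.31 CPM in WT, a pooled ratio of 311 (95% counting interval 55.3 to 12348). Dcdc2a, a doublecortin-domain gene, had 17.0, 19.9 and 11.4 CPM in DGCR8 KO and also 1 count in all in DDX6 KO, a ratio of 195 (95% counting interval 34.4 to 7744). The signalling adaptor gene Dok2 (4.63, SE 0.53, adjusted p = 3.86e-06), Asxl3 (4.42, SE 0.65, adjusted p = 5.11e-05), the calcium store protein gene Casq2 (4.25, SE 0.79, adjusted p = 0.000392), Kctd12b (3.94, SE 0.46, adjusted p = 5.46e-06) and the connexin gene Gjb1 (3.86, SE 0.49, adjusted p = 1.29e-05) followed.

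Of those highest in DDX6 KO, Igfbp7, a secreted binding protein, had 0, 2.02 and 0.409 CPM in DGCR8 KO, 28.5 and 41.1 CPM in clone 1, 26.7 and 67.3 CPM in clone 2 and 0, 2.79 and 2.54 CPM in WT, a log2 difference of −6.05 (SE 0.93, adjusted p = 7.18e-05). The RNA-binding protein gene Rbm24 held at most 3 counts in a DGCR8 KO library and had 18.5, 27.4, 21.4 and 22.8 CPM in DDX6 KO, a ratio of 32.6 (95% counting interval 14.8 to 89.6). Atp1b2, a sodium pump subunit, gave 34.5 (95% counting interval 13.2 to 128), Nhs 21.0 (95% counting interval 9.47 to 58.1) and Krtdap 18.4 (95% counting interval 8.77 to 46.5), again over at most 3 counts a library in DGCR8 KO. Crym (−3.89, SE 0.59, adjusted p = 5.84e-05), Gulp1 (−3.85, SE 0.50, adjusted p = 1.53e-05) and the channel subunit gene Lrrc8b (−3.59, SE 0.34, adjusted p = 5.77e-07) completed the group.

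On chromosome 6 the genes furthest against its direction were Podxl, a sialomucin of the cell surface with 109 ± 16.5 CPM (SD, n = 3) in DGCR8 KO and 17.4 ± 2.75 CPM (SD, n = 4) in DDX6 KO (2.63, SE 0.17, adjusted p = 1.40e-08), and Tmtc1 (2.57, SE 0.48, adjusted p = 0.000401), with Evx1 and Ldhb above. Those furthest along it, after Peg10, were the homeobox gene Tlx2 (−3.95, SE 0.47, adjusted p = 5.73e-06), Fgd5 (−3.64, SE 0.69, adjusted p = 0.000458) and the TNF receptor gene Tnfrsf1a (−3.03, SE 0.57, adjusted p = 0.000427). On chromosome 8 Trim67 had at most 2 counts in any DDX6 KO library and 22.9, 15.1 and 6.13 CPM in DGCR8 KO, a ratio of 30.6 (95% counting interval 13.7 to 84.9), and Tbc1d9 (3.49, SE 0.26, adjusted p = 4.40e-08) and Kbtbd11 (2.40, SE 0.39, adjusted p = 0.000108) were also higher in DGCR8 KO. Sh2d4a (−3.25, SE 0.48, adjusted p = 5.52e-05), the prohormone-processing enzyme gene Cpe (−3.02, SE 0.41, adjusted p = 2.41e-05) and Ankrd37 (−2.71, SE 0.47, adjusted p = 0.000196) were higher in DDX6 KO.

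Few genes were called between the clones of DDX6 KO, in a comparison of 2 libraries with 2, smaller than that of the knockouts. Of 11376 genes 2 (0.0176%) were called, Ddx6 and the Y-linked helicase Ddx3y, and 259 had an unadjusted p under 0.05, fewer than chance gives. The fit left out replicate number, although same-numbered libraries of the clones differed less than libraries of the same clone did. Few calls therefore do not show that the clones are alike. Ddx3y, the only Y-linked gene tested, had 53.8, 32.3 and 45.8 CPM in DGCR8 KO, 136 and 147 CPM in clone 1, 0.713 and 0.856 CPM in clone 2 and 94.8, 77.8 and 82.9 CPM in WT. Clone 2 thus held almost none of it, and with the clones pooled its difference between the knockouts did not pass the test (adjusted p = 0.138).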

How the data were processed

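The authors deposited a table of raw counts per gene for 10 QuantSeq 3′ FWD libraries read to 50 bases. Per the labels, reads were trimmed with cutadapt 1.14, aligned to mm10 with STAR 2.5.3a, and assigned to genes on the sense strand with featureCounts 1.5.3, with spike-in transcripts (ERCC) among the features. The 92 ERCC rows, 1.10% to 2.36% of counts, were dropped here. Symbols and positions came from Gencode M21 on GRCm38, which matched 51274 of 51467 gene identifiers. Kept were the 11376 genes that reached 3 CPM in 3 or more of the 7 knockout libraries, a set with 99.35% to 99.49% of the counts.

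Counts were scaled by TMM (edgeR 4.0.16) and tested with voom weights in limma 3.58.1 (R 4.3.3), group only, two-sided, with Benjamini-Hochberg adjustment over all tested genes. A gene was called at an adjusted p under 0.05 and a log2 difference beyond 1 in size. Errors printed with CPM are SD and those with log2 differences are SE of the fit. Where every library of the lower group held at most 3 counts, the pooled ratio of the groups is given with an exact 95% interval, which covers counting error only. Clones were compared in a fit with a group for each clone. The design was tested on simulated data. Libraries of a group differed beyond sampling noise in every pair, so none was counted as a repeat of another. Alternatives included DESeq2 1.42.0, edgeR's quasi-likelihood test, other scalings and filters, a replicate block, single clones and leaving out each library. Tables and figures were made with Python 3.11.15, pandas 2.3.3 and matplotlib 3.10.9.

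The comparison, its gene lists and the rule for named genes were chosen with earlier results of these data known. Named are the targeted genes, the 12 called genes in each direction with the largest difference outside chromosomes 6 and 8 and the 4 in each direction on each of these chromosomes (mean of at least 10 CPM in the higher group, no overlap between groups, an established symbol), up to 4 called members of each list at that mean, and any member of the miRNA pathway, Nodal, FGF and naive pluripotency lists. Some genes that the rule names are not reported here. Other genes are said to be named after their values were seen. Alternatives were followed for the named genes that passed the adjusted p, a restriction made after seeing that members near 0 change sign.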

Additional observations from a re-analysis of the deposited data

Results flagged for a closer look

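Among the 4 DDX6 KO libraries, 11 of 210 genes tested had 1 library far from the others, by Dixon's ratio of the gap to the nearest library over the range against its 95% limit. Chance gives about 1 in 20. Bcl2l11 (ratio 0.905), Klf4 (0.877), Nr5a2 (0.846) and Slc16a14 (0.998) were highest in replicate 2 of clone 1, where Klf4 had 1206 CPM against 1003 to 1028 CPM in the other libraries. Msx2 (0.899) was lowest there, at 3.86 CPM against 5.70 to 5.91 CPM. Col2a1 (0.866), mt-Co1 (0.849) and Cfap206 (1.0) were highest in replicate 1 of clone 1, Cfap206 by its only count. Ldhb (0.971), Zic2 (0.858) and Dcdc2a (1.0) were highest in replicate 1 of clone 2, where Zic2 had 23.5 CPM against 10.8 to 12.6 CPM and Dcdc2a its only count. Several of these gaps are small beside the difference between the knockouts, as for Ldhb, with 8.91 CPM in that library, 7.37 to 7.42 CPM in the other DDX6 KO libraries and a mean of 43.5 CPM in DGCR8 KO.

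Between the clones of DDX6 KO, coded as clone 2 minus clone 1, the log2 difference was −7.23 for Ddx3y and −2.17 for Ddx6, each past the adjusted p in limma. A difference between the knockouts that rests on Ddx3y therefore depends on the clone.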

How the results depend on the processing

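Counts of calls depended most on the threshold and the filter. With the adjusted p alone, 5040 genes passed (2547 higher in DGCR8 KO, 2493 higher in DDX6 KO), 4333 of them outside chromosomes 6 and 8, as did 659 list members in place of 286. With a filter of 10 CPM 1280 were called over fewer genes tested, and with no filter 2711. Of the 1280, 617 were higher in DGCR8 KO and 663 in DDX6 KO, and 1058 lay outside chromosomes 6 and 8. With clone 2 alone 685 were higher in DDX6 KO. Called snoRNA genes numbered 19 with clone 1 alone and 20 with clone 2 alone, over fewer libraries. The count between clones was 7 with no filter. Leaving out each library in turn gave 1701 to 2011 calls. The split of higher against lower calls was 728 against 1303 when scaled by total counts alone.

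The median of chromosome 6 was −0.64 with total counts alone, −0.59 with scaling by genes outside chromosomes 6 and 8, −0.59 with clone 1 alone and −0.48 with clone 2 alone, and that of chromosome 8 was −0.56 and −0.50 under those scalings. The log2 difference of Zfp42 changed direction, to 0.0898, relative to its chromosome's median. For named genes 3804 values kept their direction and their side of the threshold, 77 lost and 31 gained a call, and 1 reversed. Settings in which a gene was not tested gave no value and are not in these numbers, as for Cfap206 without any 1 DGCR8 KO library. The gains include genes under the log2 limit that passed when the adjusted p alone was used. Replicate numbers are shared by the groups, but deviations of same-numbered DGCR8 KO and DDX6 KO libraries correlated at 0.20, 0.19, 0.047 and −0.13, and not every library correlated best with its own number, so the numbers were not taken as pairs. Same-numbered WT and DGCR8 KO libraries correlated at 0.22, 0.42 and 0.47, and those of the 2 DDX6 KO clones at −0.088 and −0.13, against −0.52 and −0.53 for different numbers. A replicate block gave 1904 calls, 890 higher in DGCR8 KO and 1014 in DDX6 KO. Genes under 3 CPM in more than 4 of the 7 knockout libraries were not tested.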
